A study of Mus musculus with 5 samples.

Results

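The dopamine genes described here are 10 coding genes: the 5 dopamine receptors Drd1a, Drd2, Drd3, Drd4 and Drd5, the synthesis enzymes Th and Ddc, the transporters Slc6a3 and Slc18a2, and the receptor target Ppp1r1b. They were chosen by symbol among the RefSeq rows of the deposited expression table, which holds 20340 coding genes, and all 10 were found. Levels are in FPKM, a read measure corrected for transcript length and library size, summed over the transcripts of a symbol. FPKM is per length, so ratios between genes are printed on that scale, but they can still carry other library effects such as that of base composition described below.

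Poly(A) RNA was sequenced from microdissected brain regions of adult C57BL/6 mice, all male and wild type. The 3 regions of adult neurogenesis, namely dentate gyrus (DG), olfactory bulb (OB) and subventricular zone (SVZ), were set against the striatum (STR), a region without neurogenesis. The SVZ had 2 biological replicates, called SVZ sample 1 and SVZ sample 2 below, while every other region had 1 sample. All 4 regions share strain, sex, genotype and the label adult, no treatment is named, and the labels do not give how many animals were pooled.

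Dopamine is made from tyrosine in 2 steps, tyrosine hydroxylase (Th) being the rate-limiting one and aromatic amino acid decarboxylase (Ddc) the second. The vesicular monoamine transporter Slc18a2 packs it into vesicles and the plasma membrane transporter Slc6a3 takes it back up after release. Drd1a and Drd5 encode receptors that raise cyclic AMP, and Drd2, Drd3 and Drd4 encode receptors that lower it. Striatal projection neurons receive dopamine from midbrain cells whose bodies lie outside the striatum, whereas periglomerular neurons of the olfactory bulb make dopamine in place. Ppp1r1b encodes DARPP-32, a phosphoprotein that is an inhibitor of protein phosphatase 1 once protein kinase A has phosphorylated it.

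The promoters of 4 members are shown, Th and Slc18a2 because they share a motif, and Drd1a and Drd2 because their levels followed the same regional pattern. Each runs 5′ to 3′ on the strand of the gene, from 250 bases before to 10 bases after the RefSeq start, on GRCm38.p6. Th lies at chr7:142899986-142900245 on the minus strand, Slc18a2 at chr19:59260628-59260887 on the plus strand, Drd1a (now named Drd1), here 1 of its 2 windows, at chr13:54055649-54055908 on the minus strand and Drd2 at chr9:49340153-49340412 on the plus strand. Capitals mark the cyclic AMP response element TGACGTCA, which reads the same on both strands, and the GC box GGGCGG or its reverse complement CCGCCC.
Th: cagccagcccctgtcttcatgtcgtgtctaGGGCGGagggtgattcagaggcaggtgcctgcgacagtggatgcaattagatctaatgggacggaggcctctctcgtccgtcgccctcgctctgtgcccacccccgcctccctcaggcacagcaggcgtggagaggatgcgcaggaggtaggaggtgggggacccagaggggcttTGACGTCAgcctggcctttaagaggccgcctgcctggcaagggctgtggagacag
Slc18a2: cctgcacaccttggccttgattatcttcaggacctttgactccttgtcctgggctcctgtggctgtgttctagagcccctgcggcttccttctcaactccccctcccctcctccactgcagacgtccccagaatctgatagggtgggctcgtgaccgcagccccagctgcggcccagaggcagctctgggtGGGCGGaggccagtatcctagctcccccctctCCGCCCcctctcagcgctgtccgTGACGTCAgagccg
Drd1a: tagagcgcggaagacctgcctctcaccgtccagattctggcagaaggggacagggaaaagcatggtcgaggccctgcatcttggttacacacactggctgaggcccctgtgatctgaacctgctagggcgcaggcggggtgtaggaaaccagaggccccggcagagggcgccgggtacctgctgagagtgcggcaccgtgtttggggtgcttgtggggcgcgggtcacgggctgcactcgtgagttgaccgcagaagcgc
Drd2: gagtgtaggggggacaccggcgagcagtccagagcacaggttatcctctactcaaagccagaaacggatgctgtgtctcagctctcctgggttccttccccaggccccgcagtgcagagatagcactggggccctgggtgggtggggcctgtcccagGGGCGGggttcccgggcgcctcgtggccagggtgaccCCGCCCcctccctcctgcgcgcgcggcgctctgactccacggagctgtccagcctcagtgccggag

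The element TGACGTCA began 45 bases before the start of Th and 4 bases before that of Slc18a2, where it runs across the start. It was found in 2 of the 11 windows of the 9 members that matched the RefSeq promoter table (Ppp1r1b did not), and in 1.67% of all 32851 windows of that table. The other Drd1a window holds a GC box that begins 133 bases before its start, and the printed one holds none of the motifs. A GC box was found in 7 of the 11 windows, against 33.4% of all windows. The NBRE motif AAAGGTCA, searched on both strands, was found in 1 window, that of Ddc, against 1.39% of all. The motifs were chosen with the sequences in view, overlap each other nowhere in the printed windows, and describe letters, not bound sites.

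The libraries did not fall into regions by technical measures. Of RefSeq transcripts shorter than 200 bases, SVZ sample 2 had 153 and STR 161 that reached 1 FPKM, and the other 3 libraries had 14 to 24. The glycolytic reference gene Gapdh showed the same grouping, with 32.4 (SVZ sample 2) and 39.5 FPKM (STR) beside 414 to 563 FPKM elsewhere. Differences of OB or DG against STR therefore cross these library sets, and they are also given bridged through the SVZ, as the difference from SVZ sample 1 plus the difference of SVZ sample 2 from STR. The DG library listed 16725 of 37142 transcripts at 0, against 9564 to 10807 in the others. Read depth is unknown, as FPKM holds no counts, and no counting error can be given.

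The markers of the dissected regions followed the labels in part. The 6 striatal projection neuron markers summed to 2526 FPKM in STR and to 2658 and 2633 FPKM in the SVZ samples, against 292 in OB and 97.1 in DG. None of the 6 was listed at 0 in any library. Of 7 bulb neuron genes 4 were at least 2 log2 units higher in OB than in STR, against 6.5% of coding genes. Among them was Calb2 with 656 FPKM in OB and 0.981 in STR, whereas Gad2 had 100 FPKM in OB and 125 in STR. Of 4 granule neuron genes 3 were at least 2 units higher in DG than in STR, against 3.55% of coding genes. Among them was Prox1 with 89.5 FPKM in DG, whereas Calb1 had 111 FPKM in DG and 124 in STR. The cortical and CA excitatory neuron genes summed to 1072.5 FPKM in DG, 465 in OB, 27.9 in STR, and 2.98 and 9.53 in the SVZ samples. Slc17a7 held 752 FPKM of the DG sum. Of the 4 that could be compared between DG and STR, 4 were at least 2 units higher in DG. Their part in the DG levels of the members was not tested. The 4 SVZ wall genes summed to 159 and 76.5 FPKM in the SVZ samples, 46.5 in OB, 20.5 in DG and 6.06 in STR, and one of them, Dcx, was highest in OB at 37.5 FPKM. The 5 oligodendrocyte markers summed to 2719 FPKM in STR, 2803 and 2392 in the SVZ samples, 1291 in OB and 734 in DG, with none at 0. In such bulk samples fewer cells of a type and less RNA per cell cannot be told apart.

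**Figure D1:**
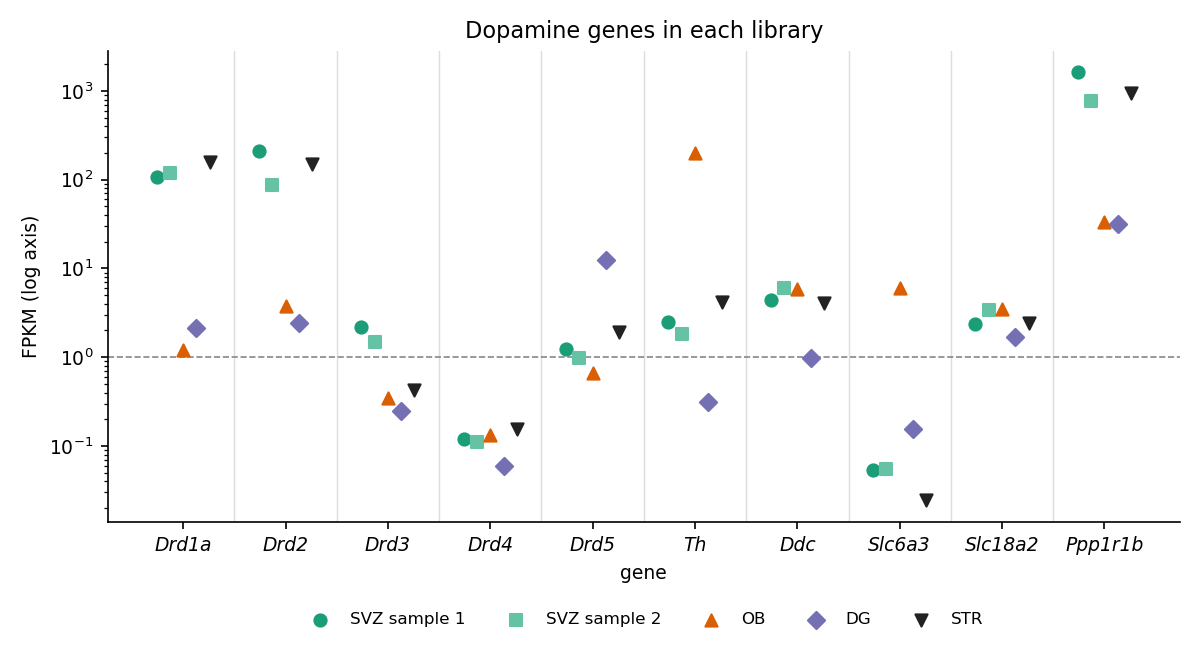
FPKM of the 10 dopamine genes (log axis) in the 5 libraries, 1 point per library, with a dashed line at 1 FPKM. Drd1a, Drd2 and Ppp1r1b are high in STR and in both SVZ samples, Th and Slc6a3 are high in OB, and Drd5 is highest in DG at 12.5 FPKM.

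Drd1a, the receptor of direct-pathway projection neurons, lies at chromosome 13, 54146553 to 54151027 (deposited locus, mm9). It was at 158 FPKM in STR, 108 and 119 FPKM in the SVZ samples, 2.13 in DG and 1.204 in OB. STR and both SVZ samples were high, and OB and DG lay far below them. In STR it stood above 98.5% of coding genes, and in OB above 36.9%. The level in STR was 131 times that in OB and 74.1 times that in DG.

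Drd2, the receptor of indirect-pathway projection neurons and of some dopamine neurons themselves, lies at chromosome 9, 49148767 to 49215319. It was at 151 FPKM in STR, 208 and 87.5 in the SVZ samples, 3.75 in OB and 2.42 in DG. The SVZ samples lay on either side of STR and were 1.24 log2 units apart, a spread that widens the error of every Drd2 comparison. The Drd2 level was 1.92 and 0.734 times the Drd1a level in SVZ samples 1 and 2, and 0.961 times that level in STR. In OB it was 3.11 times, and in DG 1.14 times, the Drd1a level, with all values of both genes there under 4 FPKM.

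Drd5, the second receptor that raises cyclic AMP, had another regional pattern. Its FPKM was 12.5 in DG, 1.92 in STR, 1.24 and 0.990 in the SVZ samples and 0.665 in OB. DG, with 1 sample, was high and the other 4 libraries were low. Drd5 made up 72.0% of the summed receptor FPKM in DG, 10.9% in OB, 0.615% in STR and 0.388% and 0.473% in the SVZ samples. Drd1a and Drd2 together made up 99.2% of that sum in STR and 26.2% in DG.

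Drd3, a receptor of limbic parts of the ventral striatum, was low everywhere, at 2.21 and 1.49 FPKM in the SVZ samples, 0.431 in STR, 0.345 in OB and 0.246 in DG. Both SVZ samples lay above the other 3 libraries, and they were the ones at 1 FPKM or more. Drd4, a retinal and cortical receptor of the same class, stayed between 0.0600 and 0.157 FPKM and was the member that reached 1 FPKM in no library. It therefore entered no comparison.

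**Figure D2:**
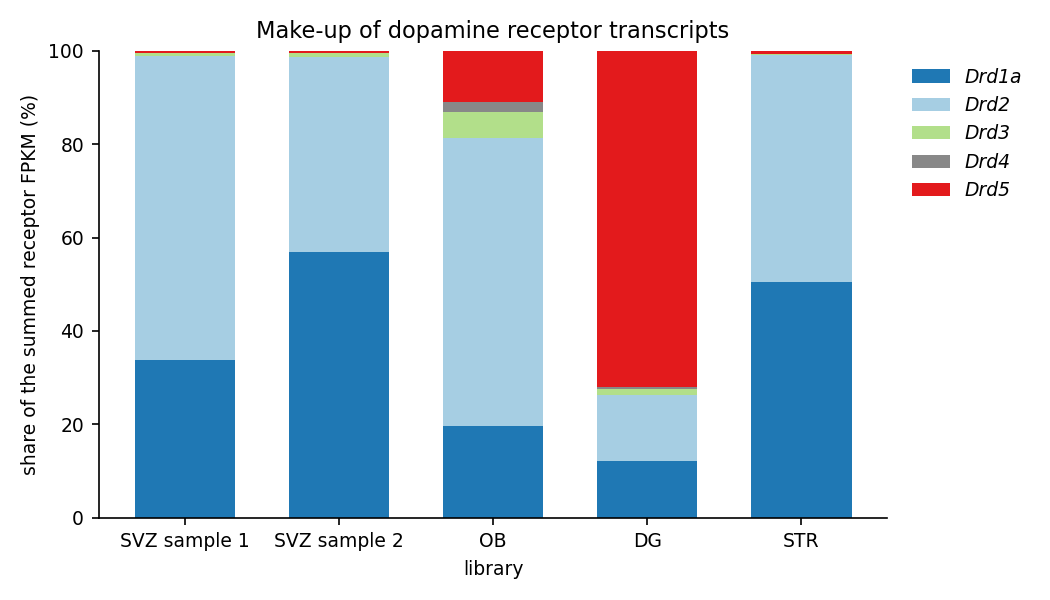
Share of each receptor gene in the summed FPKM of the 5 dopamine receptors (bars, %), for each library. Drd1a and Drd2 fill the bars of STR and both SVZ samples (98.8% to 99.2%), and Drd5 fills 72.0% of the DG bar, where the sum itself is 17.4 FPKM against 312 in STR.

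Th lies at chromosome 7, 150078681 to 150085871 (mm9). It was at 200 FPKM in OB, 4.24 in STR, 2.50 and 1.83 in the SVZ samples and 0.311 in DG. OB stood alone, above 98.3% of its coding genes, and the level there was 47.3 times that in STR and 92.5 times the SVZ mean. Th was the highest of the 10 members in OB, and Ppp1r1b was the highest in each of the other 4 libraries.

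Slc6a3 was the other member high in OB alone, at 6.01 FPKM there, 0.153 in DG, 0.0542 and 0.0554 in the SVZ samples and 0.0244 in STR. Its OB value passed 1 FPKM and no other did. It lies at chromosome 13, 73674195 to 73716120.

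Ddc and Slc18a2, which also act in cells that use other monoamines, did not follow Th. Ddc was at 5.89 FPKM in OB, 4.44 and 5.97 in the SVZ samples, 4.05 in STR and 0.978 in DG. Its second RefSeq transcript was listed at 0 in every library. OB lay between the SVZ samples, STR just below them, and DG was the lowest. Slc18a2 was at 3.48 FPKM in OB, 2.36 and 3.41 in the SVZ samples, 2.42 in STR and 1.69 in DG, the narrowest range of the members at 1 FPKM or more. The Th level was 34.01 times the Ddc level in OB, 1.05 times in STR, 0.564 and 0.307 times in the SVZ samples and 0.318 times in DG.

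Ppp1r1b lies at chromosome 11, 98210052 to 98219597. Its FPKM was 1627 in SVZ sample 1 and 765 in sample 2, 940 in STR, 33.3 in OB and 31.3 in DG. SVZ and STR were high with STR between the SVZ samples, and OB and DG were low and close to each other. Even there it stood above 82.8% and 84.4% of coding genes. The level of Ppp1r1b was 3.04 times the summed level of Drd1a and Drd2 in STR, 5.15 and 3.70 times in the SVZ samples, 6.73 times in OB and 6.89 times in DG.

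The spread between the SVZ samples was not the same for all members. On the log2(FPKM + 1) scale sample 1 lay above sample 2 by 1.24 for Drd2 and by 1.09 for Ppp1r1b, and below it by 0.14 for Drd1a, 0.36 for Ddc and 0.39 for Slc18a2. Across 12652 coding genes this difference followed the GC content of the transcripts (Spearman rho = 0.682), a description over genes of 2 libraries, in which all genes share a depth and a preparation. The GC content was 55.0% for Drd2 and 57.4% for Ppp1r1b, and 45.8% for Drd1a, 50.2% for Ddc and 42.9% for Slc18a2. Coding genes of 54% to 56% GC had a median difference of 0.58 and a 90th percentile of 1.07, below the value of Drd2. The part of GC content in the differences of single members was not tested.

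**Figure D3:**
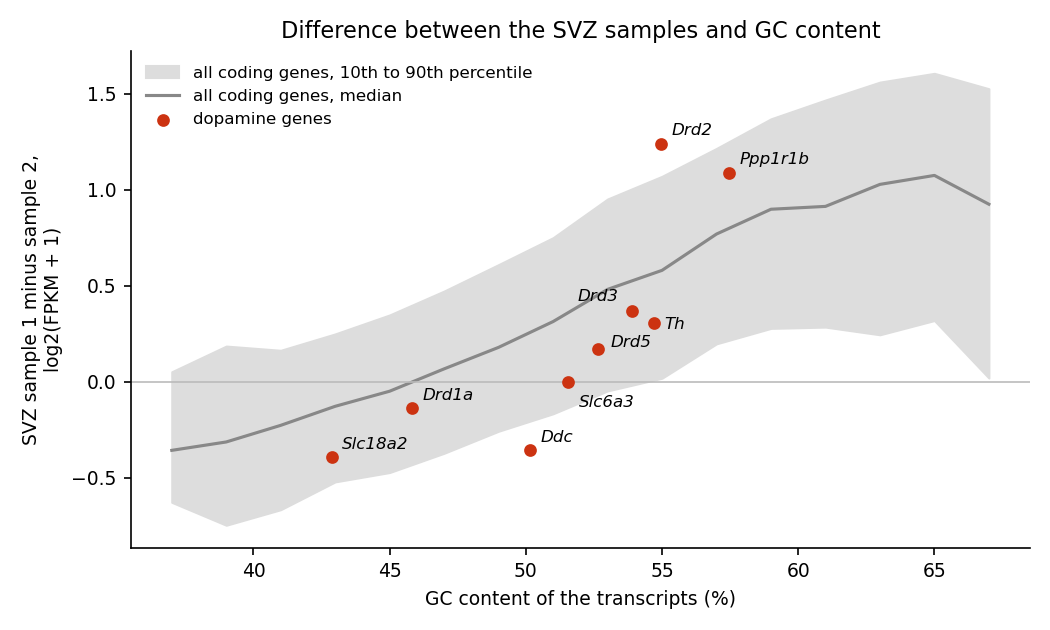
Difference between the SVZ samples in log2(FPKM + 1) against the GC content of the transcripts (%). The line and band give the median and the 10th to 90th percentiles of coding genes in bins of 2 percentage points, and points are the 9 members that reached 1 FPKM. Drd2 (1.24) lies above the band, Ddc (-0.36) below it and Ppp1r1b (1.09) within it.

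Regions were compared on log2(FPKM + 1), which understates the change of low genes. limma was fitted to all 5 libraries, and the standard errors (SE) rest on the SVZ pair alone, with 1 residual degree of freedom, the unreplicated regions being taken to vary as much as that pair. The SVZ samples fall in different library sets, so each SE and the number of limma calls carry that set difference, which the model has no term for. A difference of 2 log2 units or more was counted where either region reached 1 FPKM. Between the olfactory bulb and the striatum, the comparison of dopamine-making with dopamine-receiving tissue, 8 of the 10 members could be compared. Of these, 2 were higher in OB and 3 were lower by at least 2 units, against 8.54% of 13365 coding genes (6.5% higher and 2.04% lower).

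The 3 lower members were the receptor pair and their target. Drd1a differed by -6.17 ± 0.44 (OB minus STR, SE), Drd2 by -5.01 ± 0.81 and Ppp1r1b by -4.78 ± 0.83. The higher members were Th at 5.26 ± 0.48 and Slc6a3 at 2.78 ± 0.25. Slc6a3 could be compared through its OB value alone, and both SVZ values behind its SE are near 0, so its place in the count is a description. Ddc (0.45 ± 0.47), Slc18a2 (0.39 ± 0.45) and Drd5 (-0.81 ± 0.38) lay within 2 units. Drd5 could be compared through its STR value alone, so the filter fixed its direction. The coding median was itself 0.53 higher in OB. Oligodendrocyte markers were lower in OB too, with a median of -1.02, by 2 units for 0 of 5 and by at least 1 unit for 4 of 5. Over all coding genes 897 of 13365 were lower in OB by at least 1 unit. The part of oligodendrocytes in the members' differences was not tested. After median ratio scaling of the libraries Ddc gave -0.04 and Slc18a2 -0.05, so neither has a direction that holds across scalings.

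By limma with Benjamini-Hochberg adjustment over all 15410 genes tested, 0 had an adjusted p under 0.05, and 2128 had an unadjusted p under 0.05. Among the members the adjusted p of limma ran from 0.222 to 0.619, and the 5 that differed by 2 units or more were those with an unadjusted p under 0.05. Bridged through the SVZ, the differences were -6.03 for Drd1a, -6.25 for Drd2, -5.87 for Ppp1r1b, 4.96 for Th and 2.78 for Slc6a3. The share of higher genes among coding genes past 2 units was 76.2%, and 49.8% after scaling.

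**Figure D4:**
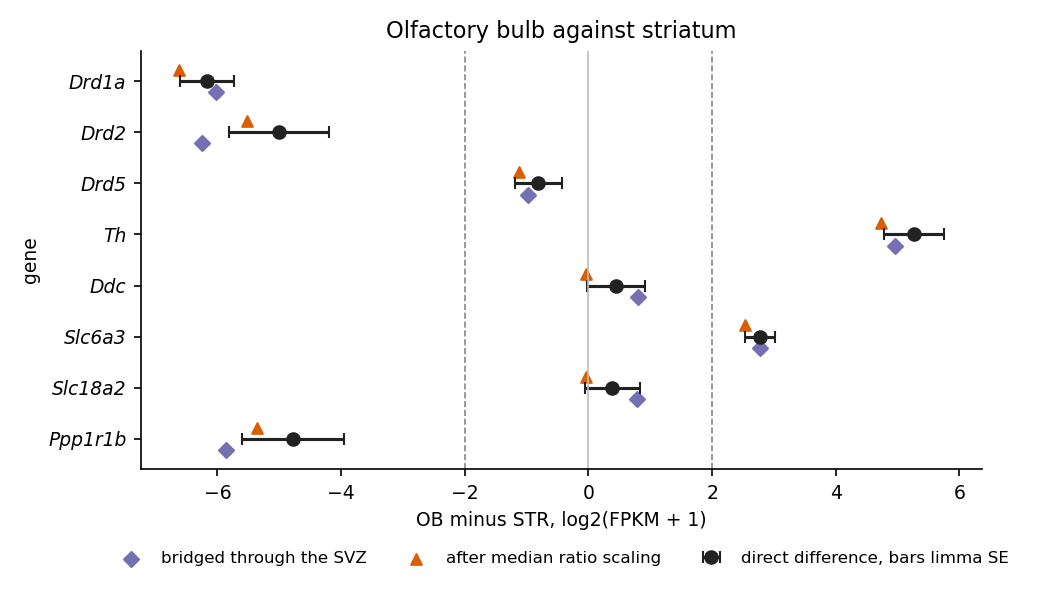
Difference between olfactory bulb and striatum (OB minus STR, log2(FPKM + 1)) for the 8 members that could be compared. Circles are direct differences with limma SE, diamonds are bridged through the SVZ, triangles follow median ratio scaling and dashed lines mark 2 units. Drd1a, Drd2 and Ppp1r1b lie below -4 and Th and Slc6a3 above 2 under all 3 settings, whereas Ddc and Slc18a2 lie between -0.05 and 0.81.

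Between the SVZ and the striatum, neighbours in the forebrain, 0 of 8 members that could be compared differed by 2 units, against 1.64% of 13375 coding genes (1.5% higher and 0.15% lower). That background of 220 genes was 134 without SVZ sample 1 and 452 without SVZ sample 2. Drd1a gave -0.47 ± 0.38 (SVZ minus STR), Drd2 -0.16 ± 0.70 and Ppp1r1b 0.25 ± 0.72. Only Drd1a lay beyond 1 SE among these 3, and Ppp1r1b gave -0.05 after scaling. With SVZ sample 1 alone Drd2 gave 0.46 and Ppp1r1b 0.79, and with SVZ sample 2 alone, which shares the library set of STR, -0.78 and -0.30. Drd3 stood farthest apart at 0.98 ± 0.29, with 1.16 and 0.80 for the single SVZ samples. Drd3 could be compared through its SVZ values alone, 2.21 and 1.49 FPKM against 0.431 in STR. The filter thus fixed its direction, and its place is a description. It was the one member with an unadjusted p under 0.05, at an adjusted p of 0.970 by limma over 15601 genes, of which 0 passed and 733 had an unadjusted p under 0.05. Th was lower in both SVZ samples, at -0.73 ± 0.42. The summed striatal projection neuron markers in the SVZ samples lay at the level of STR, as given above, and their part in the receptor levels of the SVZ was not tested.

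Between the dentate gyrus and the striatum 7 members could be compared, of which 1 was higher and 3 lower by 2 units, against 6.03% of 13002 coding genes (3.55% higher and 2.48% lower). Drd5 was the higher one at 2.21 ± 0.38 (DG minus STR). Drd1a gave -5.66 ± 0.44, Drd2 -5.48 ± 0.81 and Ppp1r1b -4.86 ± 0.83. Oligodendrocyte markers were also lower in DG, by 2 units for 3 of 5 and with a median of -2.09, and their part in these differences was not tested. Th fell just short of the threshold at -1.998 ± 0.48, and gave -2.25 after scaling and -2.30 bridged. Ddc gave -1.35 ± 0.47 and Slc18a2 -0.35 ± 0.45. Th and Ddc could be compared through their STR values alone. Bridged through the SVZ Drd5 gave 2.04, Drd1a -5.52, Drd2 -6.72 and Ppp1r1b -5.95, while Ddc gave -0.99 and Slc18a2 turned to 0.05. After scaling Drd5 lay at the threshold, at 2.00. The share of higher genes among coding genes past 2 units was 58.8%, and 44.4% after scaling. By limma 0 of 15023 genes passed and 1778 had an unadjusted p under 0.05, and the members' adjusted p ran from 0.233 to 0.734.

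Between the 2 regions of low receptor levels, OB and DG, 2 of 8 members were higher in OB and 1 was lower by 2 units, against 5.13% of 13382 coding genes (3.67% higher and 1.46% lower). Both libraries lie in the same library set. Th gave 7.26 ± 0.48 (OB minus DG), the largest difference of any member in any pair, Slc6a3 2.60 ± 0.25 and Drd5 -3.02 ± 0.38. Ddc was next at 1.80 ± 0.47. Th, Slc6a3 and Ddc could be compared through their OB values alone and Drd5 through its DG value alone. For these genes the filter fixed the direction, and their part in the count is a description. Drd1a (-0.51 ± 0.44), Drd2 (0.47 ± 0.81) and Ppp1r1b (0.08 ± 0.83) lay far inside 2 units, and Ppp1r1b gave -0.19 after scaling. By limma 0 of 15149 genes passed and 1885 had an unadjusted p under 0.05, and the adjusted p of the members ran from 0.172 to 0.983. Of coding genes past 2 units 71.5% were higher in OB, and 59.2% after scaling.

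Between OB and the SVZ, the 2 ends of the route along which SVZ-born neuroblasts travel, 2 of 9 members were higher in OB and 3 lower by 2 units, against 5.68% of 13818 coding genes (3.6% higher and 2.08% lower). Th gave 6.00 ± 0.42 (OB minus SVZ) and Slc6a3 2.73 ± 0.21, while Drd1a gave -5.70 ± 0.38, Drd2 -4.84 ± 0.70 and Ppp1r1b -5.02 ± 0.72. Each direction was the same with either SVZ sample alone. Slc6a3 could be compared through its OB value alone, and both SVZ values behind its SE are near 0, so its place in the count is a description. Ddc (0.16 ± 0.41) and Slc18a2 (0.22 ± 0.39) lay within their errors, and gave -0.08 and -0.01 after scaling. Drd3 (-1.07 ± 0.29) and Drd5 (-0.34 ± 0.33) could be compared through their SVZ values alone, so their directions are a description. Between SVZ and DG, 3 of 8 members were higher in the SVZ and 1 lower by 2 units, against 5.08% of 13603 coding genes (2.93% higher and 2.15% lower). These were Drd2 (5.31 ± 0.70, SVZ minus DG), Drd1a (5.19 ± 0.38), Ppp1r1b (5.11 ± 0.72) and, lower, Drd5 (-2.68 ± 0.33). Drd3 (1.18 ± 0.29), Th (1.26 ± 0.42) and Ddc (1.64 ± 0.41) lay within 2 units. These genes could be compared through their SVZ values alone, so the filter fixed their direction. By limma 0 genes passed in either pair, with 2203 and 2233 at an unadjusted p under 0.05, and the lowest adjusted p of a member was 0.160 and 0.158. In OB minus SVZ 63.4% of coding genes past 2 units were higher, and 49.8% after scaling. The comparisons share libraries, so their agreement is not independent evidence.

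Ordered by region, Drd1a ran from STR over SVZ and DG to OB, Drd2 from STR over SVZ and OB to DG, and Ppp1r1b from SVZ over STR and OB to DG. For these 3 genes the step from the second to the third region was 4.78 to 5.19 log2 units, and no other step of these genes exceeded 0.51. Th ran from OB over STR and SVZ to DG, with the step from STR to SVZ the smallest at 0.73 ± 0.42. Drd5 ran from DG over STR and SVZ to OB, and its steps below DG were 0.47 ± 0.33 and 0.34 ± 0.33. Slc18a2 had no step above 0.35, each smaller than its error.

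The genes whose profile over the 5 libraries was most like that of a member were taken from the 11412 coding genes that reached 5 FPKM somewhere, by the root mean square difference of profiles in log2(FPKM + 1), each centred on its own mean. For Drd2 the nearest was Ppp1r1b (0.21 log2 units), then Cd4 (0.22), Six3 (0.37) and Adora2a (0.37). For Drd1a they were Tac1, the substance P precursor (0.45), Six3 (0.48) and Gpr52 (0.53). Of the lists given below, Tac1 stands among direct-pathway genes, and Adora2a and Gpr52 among indirect-pathway genes. Six3 was near both receptors. The libraries are of bulk tissue, so likeness of these profiles cannot sort genes by pathway. The profiles also hold the difference between the SVZ samples (sample 1 minus sample 2), 1.24 for Drd2 and -0.14 for Drd1a. Nearest to Th were the thyrotropin-releasing hormone precursor Trh (0.43) and, farther off, the G-protein subunit Gng4 (0.57). Trh had 75.1 FPKM in OB, against 2.51 in STR. For Drd5 the nearest was the orphan receptor Gpr22 (0.08), at 27.2 FPKM in DG and 2.15 to 5.35 in the other libraries, and for Slc6a3 the inositol trisphosphate receptor Itpr3 (0.05). For Ddc it was Qpct (0.09).

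Noncoding transcripts of the authors' catalogue overlapped the loci of 3 members, each on the opposite strand of the member. The transcript over Ppp1r1b, with 3 exons at chromosome 11, 98212032 to 98219597 on the minus strand of mm9, had 24.4 and 27.5 FPKM in the SVZ samples, 30.4 in STR, 0.396 in OB, and was listed at 0 in DG. Like Ppp1r1b itself it was high in STR and SVZ, at 1.502% to 3.59% of the level of Ppp1r1b there. The transcript over Drd5, at chromosome 5, 38708572 to 38712133 on the minus strand, was at 3.11 FPKM in DG, 24.9% of the level of Drd5, and at most 0.179 in the other libraries. The transcript within Ddc was at most 0.0756 FPKM. Whether the libraries kept strand is not stated in the labels, and without strand the reads of a gene and its antisense partner cannot be told apart.

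The genes around dopamine signalling were read through lists, given by how many members differed between OB and STR by 2 units. Over all coding genes 6.5% were higher and 2.04% lower in OB by that much, and the counts of each list stand beside these shares. For the list of G-protein and cyclic AMP signalling 1 of 22 was higher and 11 lower in OB, with a median of -2.19 against 0.53 over all coding genes and -1.82 once bridged. The phosphodiesterase Pde10a had 14.0 FPKM in OB and 464 in STR (-4.96 ± 0.49), the G-protein subunit Gng7 had 15.8 and 409 (-4.60 ± 0.82), the G-protein regulator Rgs9 had 12.8 and 314 (-4.51 ± 0.61) and Arpp19 had 16.3 and 294 (-4.09 ± 0.47). Gnal, the stimulatory G-protein of striatal and olfactory neurons, and adenylate cyclase Adcy5 gave -3.78 ± 0.50 and -2.68 ± 0.75, and were picked as examples after their values were seen. The higher one was Gnas, at 1006 FPKM in OB and 87.7 in STR (3.51 ± 1.25). SVZ sample 1 had 340 FPKM of Gnas and SVZ sample 2 had 82.7, and the bridged difference was 1.48, under 2 units. Next on the higher side came the inhibitory G-protein subunits Gnai2 (1.89 ± 0.81) and Gnai1 (1.38 ± 0.49) and the kinase subunit Prkar1b (1.34 ± 0.67), and the bridged values were 0.73, 1.74 and 0.56.

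The next list holds kinases, phosphatases and their regulators around DARPP-32, called DARPP-32 enzymes below. Not all of them act on DARPP-32, which itself inhibits protein phosphatase 1. This list stood nearer to the coding median, with 0 of 14 higher and 3 lower and a median of -0.25, or -0.50 once bridged. The lower ones were the striatal phosphatase Ptpn5 (-2.96 ± 0.52), at 37.7 FPKM in OB and 299 in STR, and the calcineurin subunits Ppp3r1 (-2.43 ± 0.67, bridged -1.88) and Ppp3ca (-2.26 ± 0.71). The catalytic subunits of protein phosphatase 1, Ppp1ca, Ppp1cb and Ppp1cc, were at 59.6 to 215 FPKM in OB and 123 to 270 in STR. On the higher side the casein kinase Csnk1e gave 1.84 ± 0.70, and 0.86 once bridged. Of 10 receptor-binding and desensitisation proteins 0 differed by 2 units, with a median of 0.88 that became 0.27 once bridged.

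Of 6 direct-pathway neuron genes, 3 were lower in OB and 0 higher (2.04% and 6.5% over all coding genes), led by Tac1 (6.79 FPKM in OB, 212 in STR) and prodynorphin, Pdyn (2.23 and 31.2). Indirect-pathway genes were lower for 4 of 5, among them the adenosine receptor Adora2a (6.68 FPKM in OB, 142 in STR) and proenkephalin, Penk (230 and 1213). The exception was the transcription factor Sp9, with 79.7 FPKM in OB and 7.88 in STR (3.18 ± 0.98, bridged 1.58). In OB the level of Penk lay far above that of Drd2.

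On the side of dopamine making, transcription factors known from bulb dopamine neurons were higher in OB for 6 of 11 and lower for 0 (6.5% and 2.04% over all coding genes), with a median of 2.82 that was 2.08 once bridged. Dlx1 gave 5.59 ± 0.50, Sp8 5.51 ± 0.43, Dlx2 5.11 ± 1.05 and Pax6 3.73 ± 0.54. Pax6, which bulb dopamine neurons require, had 32.8 FPKM in OB, 8.27 and 5.46 in SVZ, 5.79 in DG and 1.55 in STR. Meis2 and Etv1, also known from these neurons, had 135 and 22.1 FPKM in STR, beside OB levels of 207 and 25.9 FPKM. Most of these factors also mark other bulb interneurons, so the list is not particular to dopamine cells.

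Of the 11 genes listed as midbrain dopamine neuron factors and markers 2 reached 1 FPKM in OB or STR, and the sum was 6.49 FPKM in OB and 13.9 in STR. Foxa1 and Foxa2 were listed at 0 in every library, and Pitx3, the factor of substantia nigra neurons, was at most 0.0480 FPKM. The 2 were Slc10a4, a vesicular protein of cholinergic and monoaminergic neurons, with 12.98 FPKM in STR, 9.88 and 4.87 in the SVZ samples and 0.837 in OB, and the neurotrophic factor receptor Ret, with 4.71 in OB and 0.382 in STR.

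Genes that supply the cofactor tetrahydrobiopterin, which Th requires, gave 0 of 7 beyond 2 units in either direction, with a median of 0.85 that became 0.18 once bridged. Gch1, the first enzyme of that route, had 2.00 FPKM in OB, 2.17 in DG, 0.770 and 0.590 in SVZ and 0.669 in STR. Gch1 was chosen after its values were seen. Of dopamine breakdown, the monoamine oxidase Maob had 10.5 FPKM in OB, against 14.9 in STR. By limma 0 genes of any of these lists had an adjusted p under 0.05 between OB and STR. At an unadjusted p under 0.05 there were 13 of 22 in the G-protein and cyclic AMP list, 8 of 11 among bulb dopamine neuron factors, 3 of 14 among DARPP-32 enzymes, 1 of 7 in the cofactor list and 0 of 10 among receptor-binding proteins, against 2128 of all 15410 genes. The counts of the cofactor and DARPP-32 lists lie near that share.

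**Figure D5:**
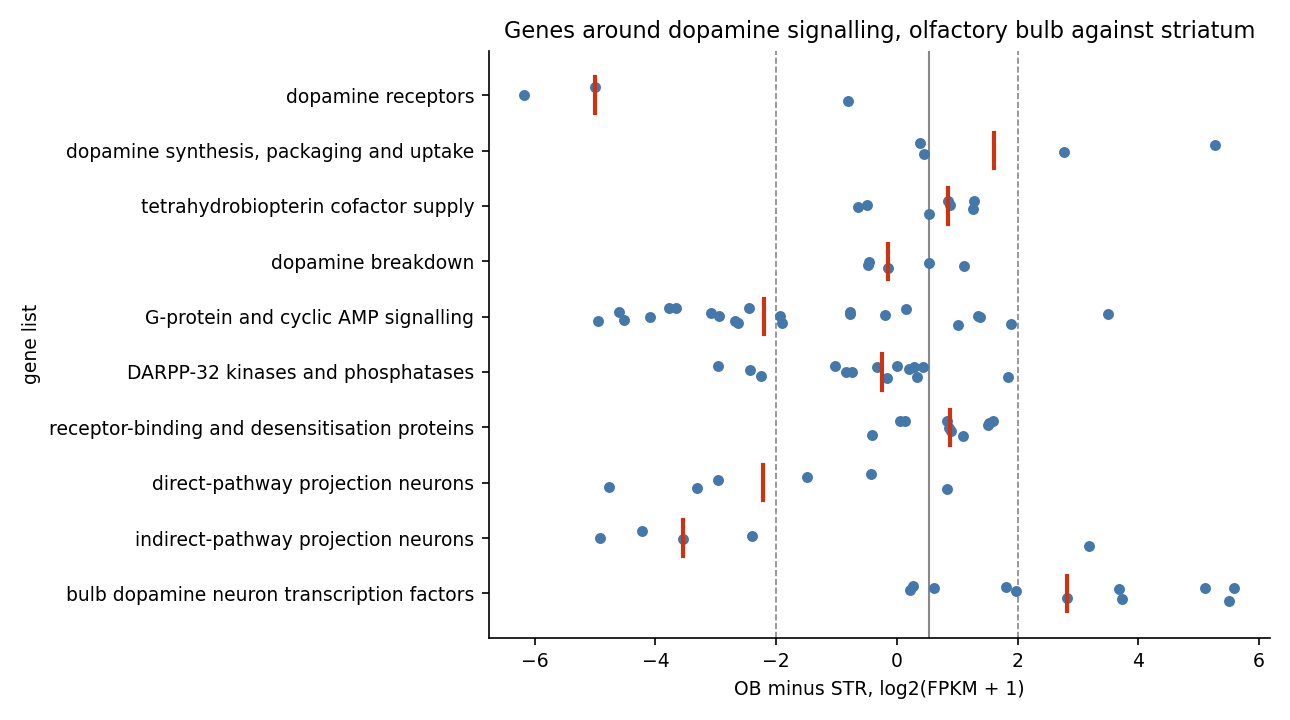
Difference between olfactory bulb and striatum (OB minus STR, log2(FPKM + 1)) for genes of 10 lists at 1 FPKM or more in either region. Points are genes, red bars list medians, the grey line the median of all coding genes (0.53) and dashed lines 2 units. The G-protein and cyclic AMP list has its median at -2.19, and the bulb dopamine neuron factors have theirs at 2.82.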

How the data were processed

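The deposited expression table gives FPKM values that the authors computed for 37142 transcripts in 5 libraries, per the file headers, of which 28150 are RefSeq transcripts and 8992 belong to their noncoding catalogue. CASAVA, TopHat 1.2.0, Cufflinks 1.0.0 and the build mm9 are named without a role in the submitters' processing notes. Starts of loci were raised by 1, because they match the catalogue's BED starts, which count from 0. Values were summed per symbol. Fewer than 30% of low values lay within 0.1 of a whole multiple of the best step found (22% to 29%, with 20% given by chance for any 1 step), so depth could not be recovered. The linear models came from limma 3.58.1 (R 4.3.3), moderated with an expression trend, on log2(FPKM + 1) over coding, RefSeq noncoding and catalogue genes, and were tested on simulated data. Adjustment covered genes that reached 1 FPKM on at least 1 side of a pair. Promoter sequences are RefSeq's, on GRCm38.p6. GC content is the mean over GENCODE M21 coding transcripts. It was found for 90.2% of the 14024 coding genes that reached 1 FPKM in a library. No coordinates of the 2 builds were mixed. Named list genes were up to 4 each way at 5 FPKM or more, and Gch1, Gnal, Adcy5, Meis2, Etv1, Ppp1ca, Ppp1cc, Chrm4, Nr4a2, Ret, Pitx3, Foxa1, Foxa2, Dbh, Slc6a2, Tph2, Calb2, Gad2, Prox1, Calb1 and Dcx were named after their values were seen. The members and lists were chosen with earlier results of these data known. Alternatives were a pseudocount of 0.1, median ratio scaling, the highest transcript, no filter, 1 log2 unit, each SVZ sample left out, limma without the trend, and bridging.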

Additional observations from a re-analysis of the deposited data

How the results depend on the processing

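No paired analysis was possible because OB, DG and STR have 1 sample each, so no replicate number is shared by 2 samples of groups that could be blocked. Counts of members past 2 log2 units stayed within 1.5 times under every alternative in 5 of the 6 pairs, and no member past 2 units changed sign. The exception was SVZ minus DG, with 4 members and 7 at a pseudocount of 0.1 or a threshold of 1 log2 unit. Over coding genes these settings gave 1359 and 2555 of 13603. The members added were Drd3, Th and Ddc. They passed 1 FPKM through their SVZ values alone, so the filter fixed their direction and their place is a description. limma called 0 genes in each pair also without the trend, without the filter and at a pseudocount of 0.1. Counts over all coding genes moved more. At a pseudocount of 0.1 they were 1877 for OB minus STR (1141 as reported), 605 for SVZ minus STR (220), 1346 for DG minus STR (784), 1452 for OB minus SVZ (785), 1243 for OB minus DG (687) and 1359 for SVZ minus DG (691). At a threshold of 1 log2 unit they were 4998, 1108, 3375, 3059, 2644 and 2555 in the same order. Bridged through the SVZ the count for OB minus STR was 612. Of the members' differences, 18 moved by more than the spread under scaling and 30 did not, and 26 and 22 at a pseudocount of 0.1. Bridged, all 15 moved, as each then shifts by the difference between the SVZ samples. Leaving out 1 SVZ sample gave 134 to 452 for SVZ minus STR, 134 without sample 1 and 452 without sample 2.  A lower pseudocount and threshold count more genes by construction, and the cause of the other changes was not tested. The unknown depth limits what can be said of members under 1 FPKM.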

Other observations

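The other monoamine genes were at most 2.83 FPKM in any library. Of 7 genes for noradrenaline and serotonin synthesis and transport, 0 reached 1 FPKM in OB or STR, against 13365 of all 20340 coding genes. Dbh, which turns dopamine into noradrenaline, was at 2.83 FPKM in DG, 0.230 in OB and at most 0.0475 in the other libraries, and the noradrenaline transporter Slc6a2 was at most 0.0163 FPKM. In DG, Th was at 0.311 FPKM. The serotonin synthesis gene Tph2 was at 1.05 FPKM in DG and 0.688 in STR.

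The 5 libraries differed in single genes of the other lists. Aldh1a1, an aldehyde dehydrogenase of a subset of dopamine neurons, was at 55.6 FPKM in DG, 36.3 in STR, 25.7 in OB and 4.67 and 6.66 in the SVZ samples. Nr4a2, a transcription factor of midbrain dopamine neurons, was at 14.8 FPKM in OB, 10.9 in DG, 3.03 in STR and 0.700 and 0.836 in the SVZ samples. The muscarinic receptor Chrm4 of direct-pathway neurons had 37.2 FPKM in OB, against 50.6 in STR, whereas Drd1a had 1.204 FPKM in OB. Nr4a2 and Chrm4 were chosen after their values were seen, and Nr4a2 stands in the list of bulb factors.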
